A study of Mus musculus with 15 samples.

Results

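The genes described here are 32 immediate-early and early feedback genes, given as a list of names, out of 22797 genes in the deposited counts. They comprise 8 AP-1 and related bZIP factors (Fos, Fosb, Fosl2, Jun, Junb, Jund, Atf3 and Maff), 3 EGR factors, 3 NR4A receptors, 4 other early transcription factors (Klf4, Klf6, Myc and Csrnp1), 3 IER proteins, 4 MAP kinase phosphatases, 4 mRNA decay factors and 3 signal and stress regulators (Rgs1, Rgs2 and Gadd45b). All 32 were in the files, and all 32 passed the filter on low counts, which kept 15339 genes. PolyA RNA had been sequenced from small-intestinal group 2 innate lymphoid cells (ILC2, 7 libraries, all in batch 1) and group 3 innate lymphoid cells (ILC3, 8 libraries, all in batch 2) of female mice. Both are tissue lymphocytes without rearranged antigen receptors, ILC2 known for type 2 cytokines and ILC3 for interleukin-22 and interleukin-17. Each cell type was taken at zeitgeber times 4, 10, 16 and 23 h (ZT4 to ZT23), with 2 libraries per group except ILC2 at ZT16, which had 1. The sources used here do not give strain, age or genotype, and no group was labelled with a treatment. Intestines of 6 mice at each time were digested, and the pooled suspension was stained and sorted by flow cytometry before RNA was taken. What the batch contributes to a difference and what the cell type contributes cannot be told apart. Nothing in the labels says if 2 libraries with the same label had their own pool of mice, so p-values measure the spread between these libraries, which may be technical.

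Immediate-early genes are transcribed within minutes of a stimulus without the need for new protein, through factors that are already in the cell, such as the serum response factor with its ELK partners, CREB and NFAT. Many of the first products are transcription factors (AP-1, EGR, NR4A), and others, such as the dual-specificity phosphatases and the mRNA decay factors, shut the same signals and transcripts down again. Enzymatic digestion of tissue and cell sorting are known to induce many of these genes. Every library here went through digestion, staining and sorting, so RNA made in the animal and RNA made during handling cannot be told apart in any value below.

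The upstream DNA of 6 of the genes is shown because Fos, Jun, Atf3, Maff and Dusp1 return in the comparisons below, and because 4 of the 6 windows hold a match to a motif of the factors named above or of the heat shock response. RefSeq (GRCm38.p6) gave windows for 26 of the 32 genes, 35 windows in all. Each sequence is the 250 bases before an annotated start, read 5′ to 3′ on the gene's strand, and capitals mark a match to 1 of 4 searched motifs. Maff has several windows. The one shown belongs to a start inside the gene and is the only Maff window with a match.
Fos (chr12:85473640-85473889, plus strand): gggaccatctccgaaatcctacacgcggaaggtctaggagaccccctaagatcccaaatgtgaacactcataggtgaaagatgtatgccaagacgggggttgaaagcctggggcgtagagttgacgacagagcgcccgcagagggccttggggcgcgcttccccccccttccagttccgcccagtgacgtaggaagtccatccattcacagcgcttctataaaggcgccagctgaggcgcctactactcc
Jun (chr4:95052223-95052472, minus strand): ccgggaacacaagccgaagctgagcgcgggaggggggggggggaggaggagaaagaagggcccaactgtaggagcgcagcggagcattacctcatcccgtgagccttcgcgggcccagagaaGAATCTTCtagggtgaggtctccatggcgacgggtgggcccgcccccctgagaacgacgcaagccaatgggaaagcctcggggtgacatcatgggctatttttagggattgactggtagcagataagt
Atf3 (chr1:191183334-191183583, minus strand): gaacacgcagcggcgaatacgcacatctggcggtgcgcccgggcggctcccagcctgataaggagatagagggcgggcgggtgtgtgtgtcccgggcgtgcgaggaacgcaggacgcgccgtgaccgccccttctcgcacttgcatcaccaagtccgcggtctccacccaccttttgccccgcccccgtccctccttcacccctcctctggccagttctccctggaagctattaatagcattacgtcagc
Maff (chr15:79347270-79347519, plus strand): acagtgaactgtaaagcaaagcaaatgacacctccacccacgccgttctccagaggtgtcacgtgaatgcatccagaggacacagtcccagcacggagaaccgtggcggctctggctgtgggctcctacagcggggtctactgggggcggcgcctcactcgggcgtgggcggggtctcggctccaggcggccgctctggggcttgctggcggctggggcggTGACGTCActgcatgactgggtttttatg
Dusp1 (chr17:26508473-26508722, minus strand): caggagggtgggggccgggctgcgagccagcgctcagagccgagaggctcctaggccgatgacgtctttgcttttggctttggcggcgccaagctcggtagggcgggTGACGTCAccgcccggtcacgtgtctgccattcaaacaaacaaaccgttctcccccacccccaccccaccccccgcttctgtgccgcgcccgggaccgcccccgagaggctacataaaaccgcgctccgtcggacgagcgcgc
Zfp36 (chr7:28379229-28379478, minus strand): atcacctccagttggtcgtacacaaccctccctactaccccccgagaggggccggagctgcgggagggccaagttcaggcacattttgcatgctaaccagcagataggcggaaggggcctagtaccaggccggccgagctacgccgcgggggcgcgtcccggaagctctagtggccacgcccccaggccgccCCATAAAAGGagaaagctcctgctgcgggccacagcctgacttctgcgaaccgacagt
The motifs, searched on both strands, were the CRE bound by CREB and ATF factors (TGACGTCA), an AP-1 site (TGACTCA), the CArG box of the serum response factor, and a core of the heat shock element (GAANNTTC). No 2 of them overlapped in the windows shown. Any of the 4 matched in 34.3% of the 35 windows, against 13.6% of 32851 windows of all genes. The 6 windows shown were partly chosen for a match. The CRE matched in Maff, Dusp1 and Btg2, 8.57% of the 35 windows against 1.55% of 32851 windows of all genes. The CArG box matched in Zfp36, Egr2 and Dusp5, 17.1% of the windows against 1.47%, though 4 of those 6 windows are start sites of Egr2 and 3 of these share the same bases. The AP-1 site (2.86% against 4.46%) and the heat shock core (5.71% against 6.69%) were found in Csrnp1 and in Jun and Fosl2. The windows of Fos and Atf3 held none of the 4 letter strings, which says nothing about the factors that bind there. A match is a description of the letters and not a shown binding site.

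The ILC2 libraries held 4016298 to 18538315 counts each, and the ILC3 libraries 5903163 to 24794403. The 3 shallowest libraries were ILC2 ZT4 replicate 1, ILC2 ZT10 replicate 1 and ILC3 ZT4 replicate 1, with at most 6543306 counts. The labels fitted the markers: 8 of 8 ILC2 markers (among them Il17rb, Klrg1, Il1rl1 and Gata3) were higher in ILC2, and 7 of 8 ILC3 markers (among them Il23r and Ccr6, but not Ahr) were higher in ILC3. Markers of other cells were present as well. The 9 B and plasma cell markers summed to between 19000 and 193000 CPM (counts scaled to 1e+06 per library) in ILC2 and to between 406 and 4370 in ILC3, with 8 of the 9 higher in ILC2. The 8 mast cell and basophil markers (143 to 623 CPM in ILC2, 1520 to 3730 in ILC3, Cma1 at 0 in ILC2) were all higher in ILC3, though one of them, Kit, is an ILC3 marker too, as were 4 of the 11 tested myeloid markers (439 to 2630 and 1630 to 4220, S100a8 at 0 in ILC2). The 5 plasmacytoid dendritic cell markers were higher in ILC2, and 1 of 16 epithelial markers was higher in ILC3. Of the 11 T cell markers, which summed to 809 to 1630 CPM in ILC2 and 610 to 3310 in ILC3, 4 were higher in ILC3 (Cd3e, Cd3d, Cd3g and Cd8a) and 4 in ILC2 (Trbc1, Trbc2, Cd8b1 and Cd5). Of the 10 cytotoxic markers, at 300 to 877 CPM in ILC2 and 837 to 4660 in ILC3, 5 were higher in ILC3, among them Gzma and Gzmb, and 2 in ILC2. Many cell types express immediate-early genes, and the part of such cells in the differences below was not tested. In bulk RNA, fewer cells of a type and less RNA per cell cannot be told apart.

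The 32 genes were abundant in both cell types. Together they took 3.27 to 3.93% of all counts in ILC2 (median 3.79%) and 2.81 to 4.53% in ILC3 (median 3.90%). The lowest share belonged to ILC3 ZT23 replicate 2, in which the 16 epithelial markers were also at their highest sum, 5370 CPM against 200 to 2030 in the other ILC3 libraries. To compare genes, levels were taken per length as RPKM (CPM divided by the length of the gene in kilobases). Junb, an AP-1 subunit, led with 2590 ± 711 RPKM in ILC2 (SD, n = 7) and 3200 ± 500 in ILC3 (SD, n = 8), rank 16 and rank 13 among all genes tested. Fosb (1500 ± 341 and 1060 ± 200), Jund (1220 ± 290 and 1130 ± 202), Nr4a1 (1100 ± 242 and 839 ± 237) and Fos (1050 ± 367 and 895 ± 223) followed. In ILC3 the order of these 4 was Jund, Fosb, Fos and Nr4a1, and in each cell type neighbours in its own order differed by less than the SD of either gene. In ILC2 8 of the 32 were among the 100 genes with the highest RPKM, and in ILC3 9 were. In each cell type 24 were among the highest 500. At the other end were Egr2 (13.3 ± 4.21 RPKM in ILC2 and 9.5 ± 2.6 in ILC3), Egr3 (8.73 ± 2.25 and 25.6 ± 7.63), Ier3 (14.8 ± 10.8 and 30 ± 4.44), Myc (28.7 ± 4.34 and 25.3 ± 7.62) and Dusp2 (30 ± 15.3 and 46.3 ± 14.4). Egr3 was the lowest in ILC2 and Egr2 in ILC3.

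**Figure D1:**
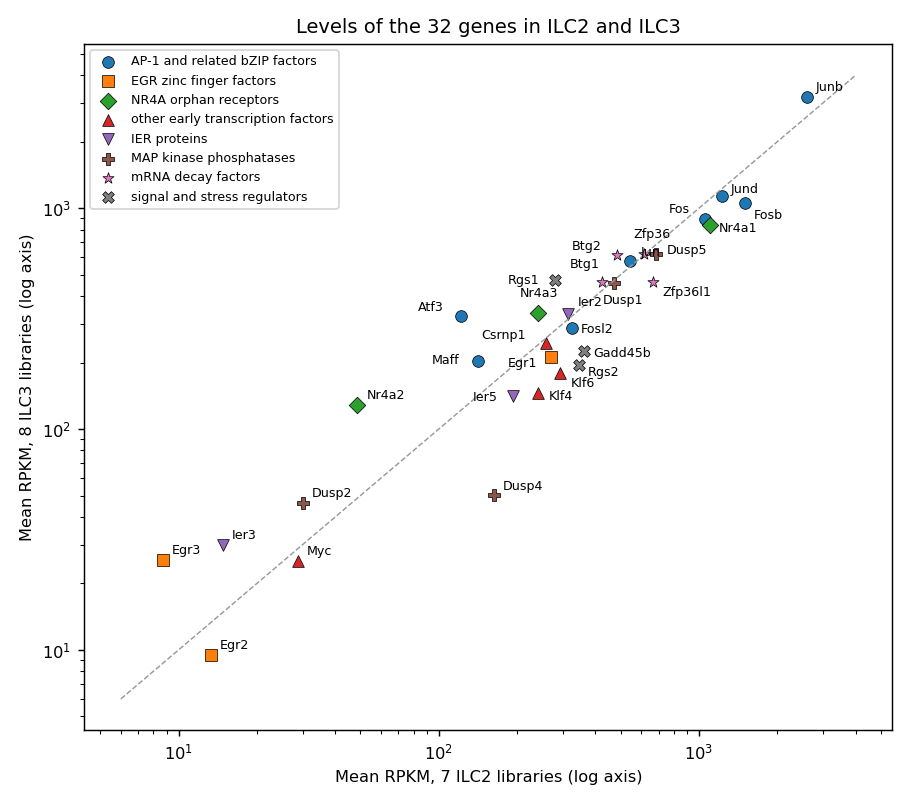
Mean RPKM of the 32 genes in the 7 ILC2 libraries (horizontal, log axis) against the 8 ILC3 libraries (vertical, log axis), with a symbol for each role and a dashed line of equal level. Junb stands highest in both cell types, Egr2 and Egr3 are among the lowest, and Egr3, Nr4a2 and Atf3 lie above the line while Dusp4 lies below it.

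Between the cell types 12 of the 32 genes differed at an adjusted p under 0.05 in edgeR's quasi-likelihood test, 37.5% of them, where 27.1% of all 15339 genes did. Of these, 6 were higher in ILC3 (18.8%, against 15.1% of all genes): Egr3, Nr4a2, Atf3, Ier3, Dusp2 and Maff. The other 6 were higher in ILC2 (18.8%, against 12% of all genes): Dusp4, Rgs2, Klf4, Klf6, Gadd45b and Fosb. The set thus did not move one way. Its median log2 fold change, ILC3 minus ILC2, was −0.10, against 0.11 over all genes, and its median absolute log2 fold change was 0.43 against 0.48. All 12 had the same direction at each of the 4 times, though the calls rest on the mean of those same 4 differences. Some differences were near 0, such as 0.02 for Dusp2 at ZT23 and −0.07 for Fosb at ZT10. At ZT16 they rest on 1 ILC2 library, and the share over all genes is not given here. In 3 of the 32 (9.38%, against 12.1% of all genes) the 7 ILC2 and 8 ILC3 libraries did not overlap. These were Egr3 and Atf3, higher in ILC3 (as 6.51% of all genes without overlap), and Dusp4, higher in ILC2 (as 5.57%). DESeq2 called the same 12 and 6 more (Ier5, Nr4a1, Nr4a3, Zfp36l1, Btg2 and Rgs1), 56.2% of the 32, where it called 32.8% of all genes. Scaled by library size alone, edgeR called 12 of the 32, with Nr4a3 and Rgs1 in place of Fosb and Gadd45b. The split of called genes over the whole table then moved from 2318 of 4157 higher in ILC3 to 2981 of 4296, as the median log2 fold change of all genes moved from 0.11 to 0.26.

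**Figure D2:**
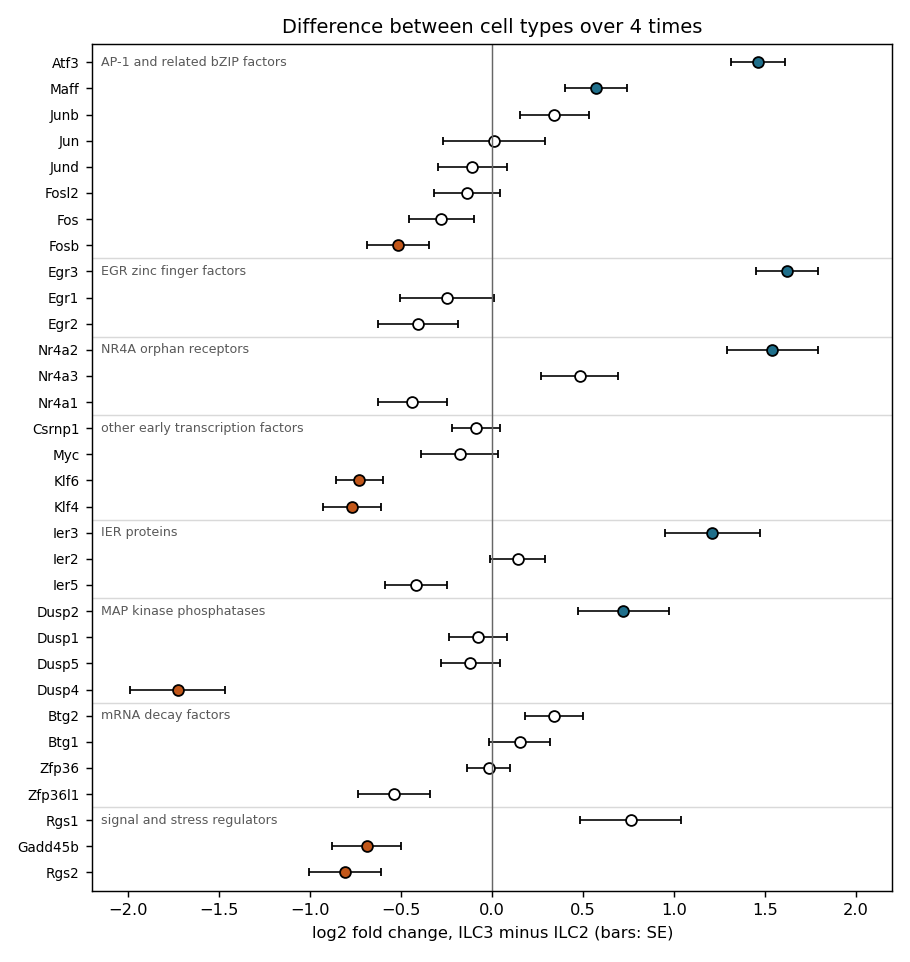
Fitted log2 fold change of each of the 32 genes, ILC3 minus ILC2 over the 4 times, with bars of 1 SE and genes grouped by role. Filled points passed an adjusted p under 0.05, blue for the 6 higher in ILC3 and orange for the 6 higher in ILC2, and both directions occur within the bZIP factors and within the phosphatases.

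Among the 8 bZIP factors, which dimerise to form AP-1 and related complexes, 2 were higher in ILC3, 1 was higher in ILC2 and 5 did not pass. Atf3 (Entrez 11910, chr1:191170296-191183333), a stress-induced factor that often acts as a repressor, had 190 CPM in the lowest ILC2 library, a median of 255 and a highest value of 301. In ILC3 its lowest, median and highest values were 461, 657 and 752 CPM. The 2 ranges did not touch, and the log2 fold change was 1.46 (SE 0.15, adjusted p = 2.40e-05). Maff (Entrez 17133, chr15:79346621-79359078), a small MAF protein without an activation domain of its own, ran from 188 CPM over a median of 231 to 399 in ILC2 and from 224 over 337 to 516 in ILC3. Its ranges overlapped widely, and the change was 0.57 on the log2 scale (SE 0.17, adjusted p = 0.0288). The call for Maff was lost, at adjusted p between 0.0518 and 0.0783, when any 1 of 6 libraries was left out: ILC2 ZT4 replicate 2, ILC2 ZT10 replicate 1, ILC2 ZT23 replicate 1, and replicate 1 of ILC3 at ZT4, ZT10 and ZT16. Fosb (Entrez 14282, chr7:19302696-19310118) ran from 4190 CPM over 5430 to 8060 in ILC2 and from 3010 over 3790 to 5540 in ILC3, which gave −0.52 on the log2 scale (SE 0.17, adjusted p = 0.0406). That call too was lost without any 1 of 8 libraries, at adjusted p between 0.0512 and 0.0986. They were ILC2 ZT4 replicate 2, ILC2 ZT10 replicate 1, ILC2 ZT16, ILC2 ZT23 replicate 1 and replicate 2 of ILC3 at ZT4, ZT10, ZT16 and ZT23. Over the 15 fits with a library left out the log2 fold change ran from 0.45 to 0.66 for Maff and from −0.61 to −0.42 for Fosb, so the size moved little while the call came and went. Atf3 passed in all 15 fits with a library left out.

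The 5 other AP-1 subunits did not pass the test between cell types. Junb had a log2 fold change of 0.34 (SE 0.19) and Fos one of −0.28 (SE 0.18), with adjusted p of 0.213 and 0.287. Fosl2 (−0.14), Jund (−0.11) and Jun (0.01) were nearer to 0, and the sign of Jun turned when any 1 of 8 libraries was left out (−0.27 to 0.16 over 15 fits). Within a family, shares of the summed RPKM show which subunit makes up the pool. Junb held a median of 62.2% of the JUN family in ILC2 and 64.6% in ILC3, and fell behind Jund (39.1% against 40.8%) in ILC2 ZT23 replicate 1. Jun itself was the minor member in both, at 10.9% (5.52 to 20) and 13.5% (4.01 to 16.7), and was lowest in ZT4 replicate 1 of each cell type. Of the FOS family Fosb held 52.7% in ILC2 and 45.6% in ILC3 and Fos 35.8% and 42.6%. Fosl1, which is not one of the 32, stayed between 0.0105 and 0.393%.

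**Figure D3:**
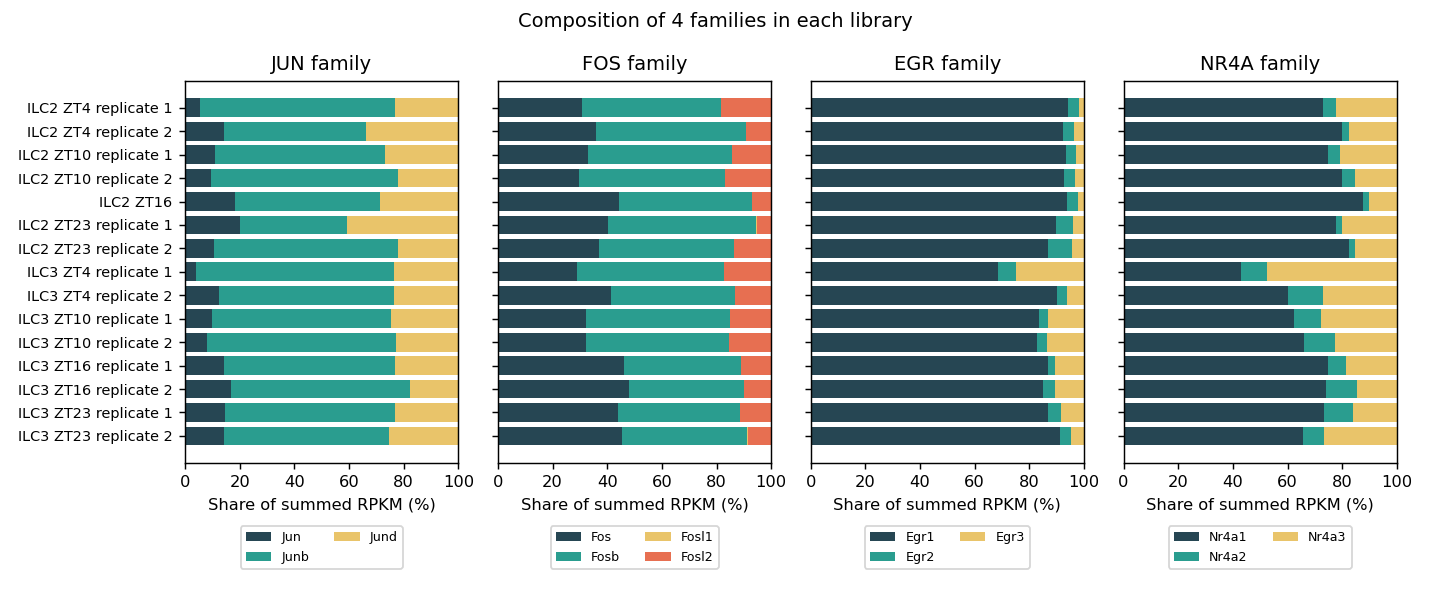
Share of the summed RPKM (horizontal, percent) that each member holds of the JUN, FOS, EGR and NR4A families, 1 bar for each of the 15 libraries. Egr1 makes up the widest part of every bar of its family, Junb does so outside ILC2 ZT23 replicate 1 and Nr4a1 outside ILC3 ZT4 replicate 1, and the Egr3 and Nr4a2 parts are wider in ILC3.

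The EGR zinc finger factors split by member. Egr3 (Entrez 13655, chr14:70077317-70082613), which with Egr2 is known to restrain lymphocyte activation, had 7.3 CPM in the lowest ILC2 library, a median of 11.3 and a highest value of 16.2. In ILC3 it ran from 17.9 over 37.9 to 48, so that every ILC3 library was above every ILC2 library. The log2 fold change was 1.62 (SE 0.17, adjusted p = 2.91e-05), or 3.08-fold. Neither Egr1 (log2 fold change −0.25, adjusted p = 0.537) nor Egr2 (−0.41, 0.187) passed. Egr1 was called, at −0.57 and an adjusted p of 0.0388, when ILC3 ZT4 replicate 2 was left out, and its sign turned, to 0.02, without the 3 shallowest libraries. Egr1 made up a median of 92.5% of the family's RPKM in ILC2 and 86% in ILC3. The share of Egr3 was 3.31% (1.98 to 4.48) in ILC2 and 10.6% (4.73 to 25) in ILC3, without overlap. The 25% was in ILC3 ZT4 replicate 1, where Egr1 was at its ILC3 minimum of 216 CPM and Egr3 at 36.3 CPM.

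The NR4A orphan receptors, induced by antigen-receptor and cAMP signals in lymphocytes, also split by member. Nr4a2 (Entrez 18227, chr2:57106830-57124003) ran from 73.7 CPM over a median of 107 to 287 in ILC2, and from 173 over 448 to 595 in ILC3. The ranges overlapped through ILC3 ZT23 replicate 2 and 3 of the ILC2 libraries, and the log2 fold change was 1.54 (SE 0.25, adjusted p = 0.000656). Nr4a1 (−0.44, SE 0.19, adjusted p = 0.106) and Nr4a3 (0.48, SE 0.21, adjusted p = 0.109) did not pass. Nr4a1 was called at adjusted p of 0.0438 and 0.0439 when the first replicate at ZT23 of ILC2 or of ILC3 was left out, and Nr4a3 when ILC3 ZT4 replicate 2 was (0.0317). Nr4a1 was the main member, with a median of 79.8% of the family's RPKM in ILC2 and 66% in ILC3. Nr4a2 held 2.51% (2.09 to 4.87) in ILC2 and 10.1% (6.6 to 12.7) in ILC3, again without overlap. The shares of Egr3 and Nr4a2 reuse the values behind their calls. How often shares in other families part in this way is not given here.

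Of the 4 other early transcription factors 2 were higher in ILC2 and none in ILC3. Klf6 (Entrez 23849, chr13:5861489-5870393), a Krüppel-like factor, ran from 946 CPM over 1230 to 1510 in ILC2 and from 607 over 743 to 1020 in ILC3, or −0.73 on the log2 scale (SE 0.13, adjusted p = 0.00132). Klf4 (Entrez 16600, chr4:55527137-55532475), of the same family, ran from 591 over 744 to 963 in ILC2 and from 248 over 398 to 758 in ILC3 (−0.77, SE 0.16, adjusted p = 0.00326). Both ranges overlapped. Myc, a regulator of growth and metabolism (−0.18, adjusted p = 0.572), and Csrnp1, a nuclear protein (−0.09, adjusted p = 0.658), did not pass.

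The 3 IER proteins gave 1 call. Ier3 (Entrez 15937, chr17:35821713-35822911), a stress-inducible regulator of cell survival, lay between 9.28 and 13.7 CPM in 6 ILC2 libraries and at 42.7 in ILC2 ZT4 replicate 1, above every ILC3 library. In ILC3 it ran from 24.5 over a median of 33.6 to 38.7. The log2 fold change was 1.21 (SE 0.26, adjusted p = 0.00383) with that library and 1.49 without it. Ier2 did not pass (0.14, adjusted p = 0.528). Ier5 missed the threshold at −0.42 (SE 0.17, adjusted p = 0.0822), and passed, at adjusted p between 0.0433 and 0.0435, when ILC2 ZT4 replicate 2, ILC2 ZT10 replicate 2 or ILC2 ZT23 replicate 2 was left out.

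The MAP kinase phosphatases, which remove the activating phosphates from ERK, JNK and p38, moved both ways. Dusp4 (Entrez 319520, chr8:34807610-34819894) ran from 190 CPM over a median of 391 to 660 in ILC2 and from 80.1 over 125 to 180 in ILC3. Every ILC2 library was above every ILC3 library, and the log2 fold change was −1.73 (SE 0.26, adjusted p = 0.000413), or 3.31-fold. Its spread within ILC2 was wide: the 2 libraries at ZT10 had 505 and 190 CPM, and the 2 at ZT23 had 660 and 237. Dusp2 (Entrez 13537, chr2:127336159-127338377) ran from 27.7 over 40.1 to 97.8 in ILC2 and from 39.5 over 76.6 to 114 in ILC3. It sat at the threshold, at 0.72 on the log2 scale (SE 0.25, adjusted p = 0.0499). That call held in 3 of the 15 fits with a library left out, those without ILC2 ZT4 replicate 1, ILC2 ZT23 replicate 2 or ILC3 ZT4 replicate 2. In the other 12 the adjusted p was between 0.0512 and 0.218. Dusp1 (−0.08) and Dusp5 (−0.12) did not pass.

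None of the 4 mRNA decay factors passed. Zfp36 (tristetraprolin) and Zfp36l1 bind AU-rich elements in short-lived messages, and Btg1 and Btg2 join the deadenylase complex and restrain proliferation. Their log2 fold changes were −0.02 for Zfp36, 0.15 for Btg1, 0.34 for Btg2 and −0.54 for Zfp36l1 (SE 0.20, adjusted p = 0.0624). Zfp36l1 was called, at adjusted p of 0.0247 and 0.0176, without the first replicate at ZT23 of ILC2 or of ILC3. Of the signal and stress regulators, Rgs2 (Entrez 19735, chr1:143999338-144004149), which speeds the turning off of G proteins, ran from 717 CPM over 968 to 1370 in ILC2 and from 414 over 585 to 812 in ILC3 (−0.81, SE 0.20, adjusted p = 0.00997). Rgs1, of the same family, had the opposite sign, 0.76 (SE 0.28), with an adjusted p of 0.0620. It was called without ILC2 ZT4 replicate 1 (0.0186), ILC2 ZT23 replicate 2 (0.0189) or ILC3 ZT23 replicate 2 (0.0477). Gadd45b (Entrez 17873, chr10:80930091-80932204), a stress sensor upstream of p38 and JNK, ran from 320 over 416 to 636 in ILC2 and from 206 over 245 to 452 in ILC3 (−0.69, SE 0.19, adjusted p = 0.0185). Scaled by library size alone, Gadd45b lost its call (adjusted p = 0.0511).

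**Figure D4:**
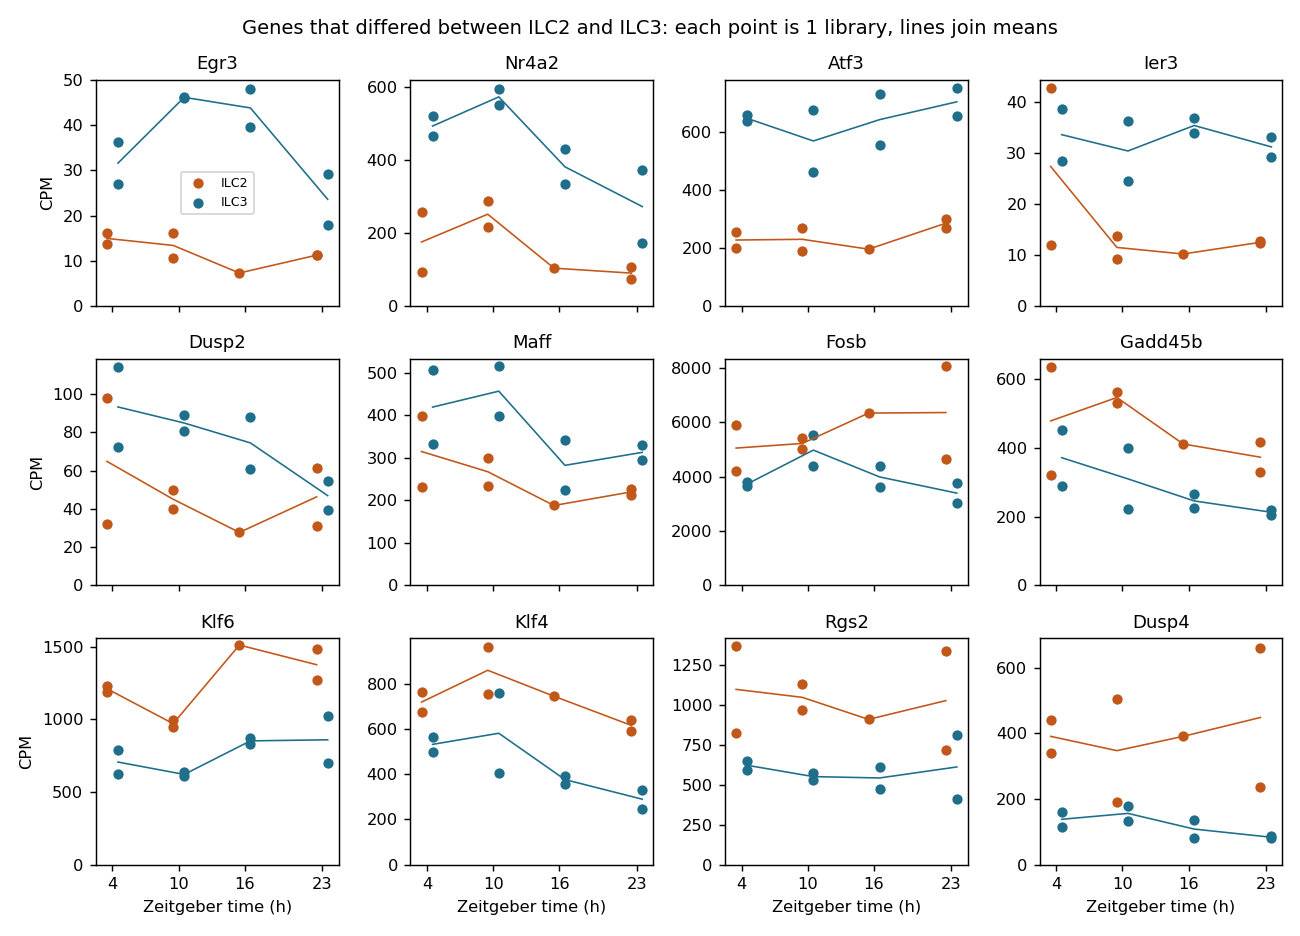
CPM of the 12 genes called between cell types (vertical, from 0) at each zeitgeber time (horizontal, hours), 1 point per library, orange for ILC2 and blue for ILC3, with lines through the means and the cell types set slightly apart. Within every time the 2 colours stay apart in Egr3, Nr4a2, Atf3, Klf6 and Dusp4, and in each of the others they overlap at 1 or 2 of the 4 times, such as Ier3 at ZT4, where 1 ILC2 library has 42.7 CPM. The 12 genes were called on these same values, and ZT16 has 1 ILC2 library. The share of all genes that stay apart within every time is not given here.

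Time of day was tested within each cell type, and so within a batch. No member passed in ILC2 or in ILC3, and none passed the test of whether the time course differed between them, at an adjusted p under 0.05 in edgeR, as 0% of all genes did in each of the 3 tests. At an unadjusted p under 0.05 there were 2 members in ILC2, 4 in ILC3 and 1 in the interaction, 6.25, 12.5 and 3.12% of the 32, against 3.36, 4.36 and 2% of all genes. DESeq2 called 0 members in ILC2, 0 in the interaction and 1, Nr4a3, in ILC3. Over all genes with an adjusted p it called 24 of 14446, 2 of 15339 and 23 of 4336 in the same tests, and it gave no adjusted p to 3 of the members in ILC3.

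By the rule that names the 4 genes with the smallest p of each test, Nr4a2 came first in ILC2 (adjusted p = 1 in edgeR for all 4). ZT4 gave 259 and 92.5 CPM, ZT10 217 and 287, ZT16 104, and ZT23 73.7 and 107. Both ZT10 values were above those of ZT16 and ZT23, but ZT4 spanned nearly the whole range. For Ier3 ZT4 gave 42.7 and 12 CPM, ZT10 13.7 and 9.28, ZT16 10.2, and ZT23 12.7 and 12.3, so that 1 ZT4 library stood alone. Ier2 had 858 and 431 CPM at ZT4 and between 377 and 456 elsewhere. The same library, ZT4 replicate 1, set both genes apart. For Fos ZT4 gave 1400 and 2130 CPM, ZT10 1870 and 1520, ZT16 3190, and ZT23 3330 and 1920. Its 2 high values came from ZT16, which has no replicate, and from 1 of the 2 ZT23 libraries.

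In ILC3 Nr4a3 came first (adjusted p = 0.965 in edgeR and 0.0375 in DESeq2). ZT4 gave 1330 and 626 CPM, ZT10 887 and 696, ZT16 528 and 309, and ZT23 319 and 346, and all 4 values of the first 2 times exceeded all 4 of the later ones. For Klf4 the pairs were 564 and 499, 758 and 403, 394 and 358, and 331 and 248 CPM in the order of the times, with the same division of the 8 libraries. For Csrnp1 they were 1010 and 687, 920 and 812, 688 and 567, and 537 and 458 CPM. Its 1 overlap was between ZT4 replicate 2 and ZT16 replicate 1. Egr3 was highest at the middle times, with pairs of 36.3 and 26.9, 46.2 and 46.1, 39.6 and 48, and 29.3 and 17.9 CPM. The low ZT23 values of Klf4, Csrnp1 and Egr3 include ILC3 ZT23 replicate 2, the library with the highest epithelial and erythroid marker sums. The part of those markers was not tested. All 4 genes had the same adjusted p in edgeR, 0.965. The divisions by time were read from the same values that ranked these genes, and their share over all genes is not given here.

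Egr3 also had the smallest p for a difference between the time courses of the 2 cell types (adjusted p = 1 in edgeR). Its ILC2 values were 16.2 and 13.7 CPM at the first time, 10.7 and 16.1 at the next, 7.3 at ZT16, and 11.2 and 11.3 at the last, lowest at the time when 1 of the ILC3 libraries was highest. Egr1 was next. In ILC2 it had 1670 and 768, 739 and 975, 653, and 543 and 478 CPM in the order of the times. In ILC3 it had 216 and 838, 628 and 612, 702 and 835, and 649 and 750. Its 2 extreme values were both in ZT4 replicate 1, high in ILC2 and low in ILC3. Ier3 and Nr4a3 completed the 4. In ILC3 Ier3 stayed between 24.5 and 38.7 CPM, and in ILC2 Nr4a3 had 663 and 384, 567 and 522, 257, and 329 and 444 CPM.

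Differences between the 2 libraries of a group set the limit for these tests. The median absolute log2 difference between them, over the 32 genes, was 0.62 in ILC2 at ZT4, where that of all genes was 0.42, and 5 of the 32 differed by over 1 log2 unit there, with Ier3 at 1.79. In the other 6 groups with 2 libraries the median lay between 0.21 and 0.48 for the 32 genes and between 0.21 and 0.49 for all genes. In ILC3 at ZT4 Egr1 differed by 1.95, with 216 against 838 CPM. The median biological coefficient of variation of the 32 genes was 0.26, against 0.33 over all genes. The 2 ZT4 replicate 1 libraries also had the highest sums of the 11 tested myeloid markers in their cell type. The sum was 2630 CPM in ILC2, against 439 to 1570 in the other 6 libraries, and 4220 in ILC3, against 1630 to 2620 in the other 7. Both are also among the 3 libraries with the fewest counts. Other marker sums were extreme there as well. In ILC3 ZT4 replicate 1 the T cell sum was the lowest of ILC3, 610 CPM against 1020 to 3310. Its cytotoxic sum was the lowest too, 837 CPM against 1860 to 4660. In ILC2 ZT4 replicate 1 the cytotoxic sum was the highest of ILC2, 877 CPM against 300 to 749. Epithelial sums were the lowest of each cell type there, 78.7 CPM in ILC2 and 200 in ILC3. The part of depth or of RNA of any of these cells in the values of Ier3, Ier2 and Egr1 was not tested.

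Heat shock genes, which stress can induce and which the list does not contain, were examined as well. Whether stress set their level in these libraries was not tested. Hspa1a and Hspa1b encode the inducible HSP70 chaperone, and as near-identical copies they were summed. In ILC2 ZT4 gave a sum of 521 and 2510 CPM, ZT10 1770 and 1340, ZT16 7180, and ZT23 5820 and 1700. In ILC3 the pairs were 604 and 6220, 2960 and 2820, 7770 and 5360, and 4230 and 4010 CPM in the order of the times. The lowest value of each cell type was in ZT4 replicate 1. Of the 16 heat shock genes examined, 0 passed over time and 2 passed between cell types, where 27.1% of all genes did. Both were higher in ILC2: Dnaja1 (−0.99) and Hspa5 (−0.58).

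The level of each of the 32 genes was then compared with this sum across libraries within each cell type, 64 relations on the log2 CPM scale with exact permutation tests, a choice made after the data were seen. The permutations moved libraries freely across the times, as if libraries of the same time were no more alike than others. A shared time or pool of mice could break that assumption. Only the 32 genes were compared with the sum, and the share of all genes that would pass is not given here. The counts below therefore cannot be read as particular to these genes. In ILC2 Fos and Jun rose most closely with Hspa1a and Hspa1b. For Fos Pearson's r was 0.964 and Spearman's rho 0.929 (n = 7, exact permutation p = 0.000794 and 0.00675, Benjamini-Hochberg adjusted 0.0254 and 0.0787). For Jun r was 0.972 and rho 0.964 (exact permutation p = 0.000794 and 0.00278, adjusted 0.0254 and 0.0787). Without the 2 libraries farthest from the median, ZT16 and ZT4 replicate 1, r was 0.989 for Fos and 0.975 for Jun, and without the 2 highest it was 0.908 and 0.938. Fosb had an r of 0.888 (rho 0.929, exact permutation p = 0.00972 and 0.00675, adjusted 0.0479 and 0.0787) and 0.957 without those first 2.

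In the same ILC2 libraries 6 genes fell as the heat shock sum rose, by Pearson's r at an adjusted p under 0.05. They were Nr4a3 (r = −0.945, rho = −0.893), Maff (−0.913, −0.893), Junb (−0.900, −0.857), Btg1 (−0.893, −0.929), Dusp2 (−0.889, −0.893) and Fosl2 (−0.861, −0.893). Their exact permutation p for r ran from 0.00139 to 0.00873 (adjusted 0.0296 to 0.0466), and those for rho from 0.00675 to 0.0238 (adjusted 0.0787 to 0.109). Without the 2 farthest libraries r was −0.981 for Junb, −0.943 for Fosl2, −0.923 for Btg1 and −0.869 for Nr4a3, while it was −0.703 for Maff and −0.649 for Dusp2, with exact permutation p of 0.233 and 0.242. Without the 2 highest libraries, ZT16 and ZT23 replicate 1, it was −0.974 for Junb, −0.947 for Maff, −0.860 for Dusp2, −0.847 for Nr4a3, −0.768 for Btg1 and −0.646 for Fosl2. The relations of Maff and Dusp2 were thus weaker without the first pair, and those of Btg1 and Fosl2 without the second. Jun and Junb, subunits of the same family, thus ran opposite ways across the ILC2 libraries.

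In ILC3 4 genes rose with the heat shock sum and none fell at that threshold. They were Jun (r = 0.945, rho = 0.881), Egr1 (0.944, 0.810), Fos (0.886, 0.810) and Dusp1 (0.868, 0.857). Their exact permutation p for r were 0.0036, 0.00692, 0.003 and 0.00538 (n = 8, adjusted 0.0384 to 0.0443), and those for rho were 0.00724, 0.0218, 0.0218 and 0.0107 (adjusted 0.0787 to 0.109). Without ZT4 replicate 1 and ZT16 replicate 1, r was 0.911 for Egr1 (exact permutation p = 0.0181), but 0.647 for Jun, 0.571 for Fos and 0.505 for Dusp1, with exact permutation p of 0.168, 0.240 and 0.319. Without the 2 highest libraries, which keeps the low ZT4 replicate 1, it was 0.988 for Egr1, 0.956 for Jun, 0.905 for Fos and 0.863 for Dusp1. The relations of Jun, Fos and Dusp1 kept their sign but were weaker without ZT4 replicate 1 and ZT16 replicate 1. Fewer libraries and a narrower range of the sum remained there. Egr1 had an r of −0.736 in ILC2 (adjusted 0.146), and whether it differed between the cell types was not tested. Over all 64 relations no Spearman value had an adjusted p under 0.05, the lowest being 0.0787. Other values of these libraries were set beside the sum. In ILC2, from the lowest heat shock sum to the highest, the plasma cell markers summed to 70500, 37400, 19000, 49900, 98600, 193000 and 98600 CPM, so the 3 highest values coincided but the lowest did not. The deepest libraries of each cell type had heat shock sums of 1340 CPM in ILC2 and 2820 CPM in ILC3, neither the lowest nor the highest. The lowest heat shock sums, 521 CPM in ILC2 and 604 CPM in ILC3, were both in ZT4 replicate 1, among the 3 shallowest libraries. ILC3 ZT4 replicate 1 was the shallowest of its cell type, with 5903163 counts where the others had at least 15222181. The shallowest ILC2 library, ZT10 replicate 1, had a sum of 1770 CPM. The highest heat shock sum of each cell type was at ZT16, 7180 CPM in ILC2 and 7770 CPM in ILC3. The part of plasma cell RNA, depth or time of day in these relations was not tested.

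**Figure D5:**
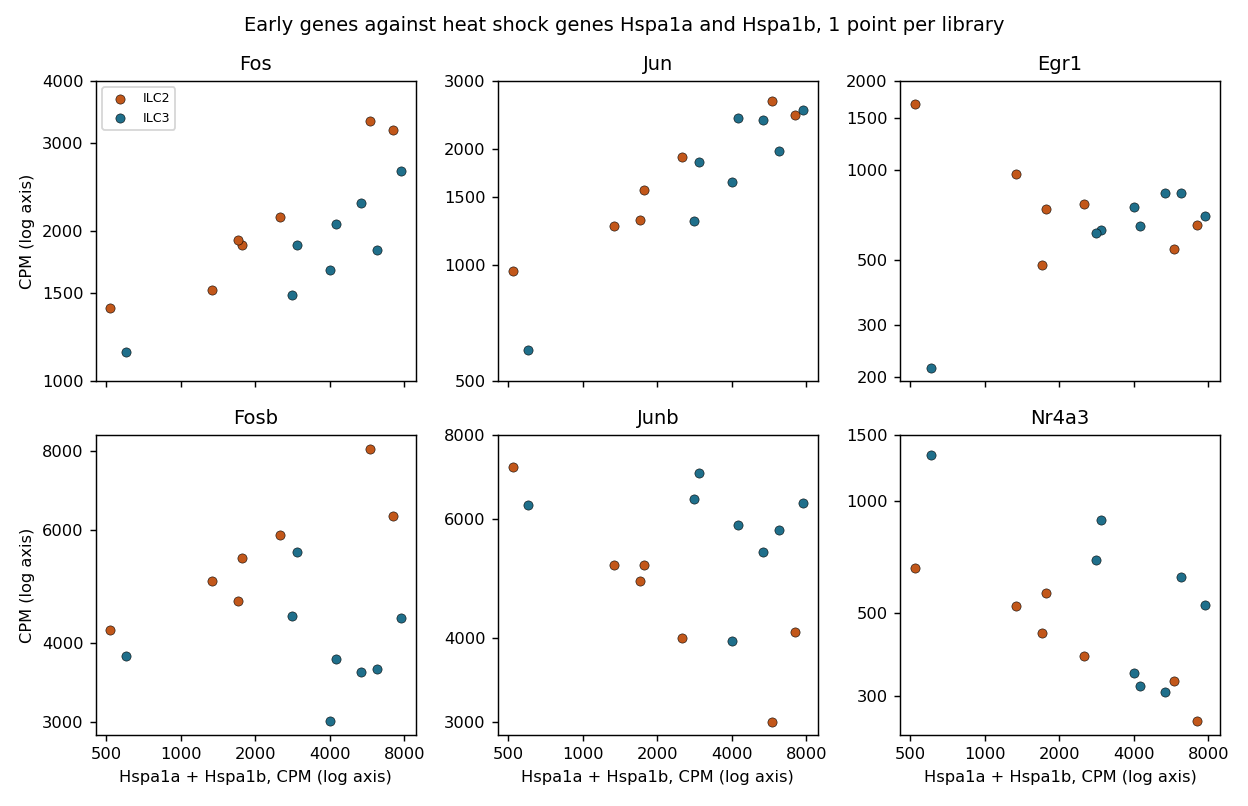
CPM of 6 early genes (vertical, log axis) against the summed CPM of Hspa1a and Hspa1b (horizontal, log axis), 1 point per library, orange for ILC2 and blue for ILC3. Fos and Jun rise from the lowest heat shock sums (521 and 604 CPM) to the highest (7180 and 7770 CPM) in both cell types, while Junb and Nr4a3 fall across the ILC2 points.

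Genes that lie upstream of the 32, or partner with them, were counted in the same fits. Of 26 kinases, phosphatases and factors upstream, 6 were higher in ILC3 and 4 in ILC2, with a median log2 fold change of 0.10. Over all 15339 genes, 15.1% were higher in ILC3 and 12% in ILC2. The upstream genes called included Nfatc2, a calcium-responsive factor (1.54, SE 0.19, adjusted p = 8.45e-05), and Mapk14, the p38 kinase (0.78, SE 0.14, adjusted p = 0.00119), both higher in ILC3. Ppp3ca, the calcineurin subunit that activates NFAT factors (−0.83, SE 0.16, adjusted p = 0.00186), and Elk4, a partner of the serum response factor (−0.66, SE 0.13, adjusted p = 0.00304), were higher in ILC2.

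Of 15 other bZIP genes 5 were higher in ILC3 and 1 in ILC2 (median 0.24), beside 15.1% and 12% of all genes. Batf3, known from dendritic cells, was at 0.274 to 5.31 CPM in ILC2 and at 27.9 to 53.9 in ILC3 (4.49, SE 0.54, adjusted p = 7.10e-05). Cebpd, an acute-phase factor, went from a median of 8.45 CPM in ILC2 to 31.9 in ILC3 (1.99, SE 0.17, adjusted p = 5.14e-06). Mafk, a small MAF protein like Maff, was likewise higher in ILC3 (0.93, SE 0.12, adjusted p = 9.56e-05), and Ddit3, a factor of the unfolded protein response, was higher in ILC2 (−0.59, SE 0.17, adjusted p = 0.0233).

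Of 45 other early and feedback genes 12 were higher in ILC3 and 14 in ILC2 (median −0.11), beside 15.1% and 12% of all genes. Ier5l, a relative of Ier5, had 9.17 to 22.6 CPM in ILC2 and 75.5 to 217 in ILC3 (3.39, SE 0.23, adjusted p = 1.19e-06). Phlda1 (1.28, SE 0.14, adjusted p = 3.82e-05) and Socs1, an inhibitor of cytokine receptor signalling (1.32, SE 0.19, adjusted p = 0.000246), were also higher in ILC3. Dusp10, a phosphatase of p38 and JNK, was higher in ILC2 (−1.88, SE 0.23, adjusted p = 7.43e-05), as was Dusp4. Of 15 targets of MYC 2 were higher in ILC3 and 1 in ILC2, beside the same shares of all genes. Odc1 (1.63, SE 0.29, adjusted p = 0.00120) and Tfrc (0.77, SE 0.19, adjusted p = 0.0104) were higher in ILC3. Srm was higher in ILC2 (−1.34, SE 0.16, adjusted p = 8.41e-05), while Myc itself did not pass. Odc1 and Srm encode enzymes of the same polyamine pathway. No gene of these 4 lists passed a test over time in edgeR.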

How the data were processed

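PolyA RNA of 15 libraries was measured. Reads were counted per gene with featureCounts on mm10, per the submitters' processing notes, and the authors deposited whole-number counts under Entrez identifiers with gene lengths. The aligner, the strand setting and the handling of reads with several positions are not given in the sources used here. Of 22797 identifiers 22718 were named through RefSeq (GRCm38.p6, the assembly of mm10), which also gave the positions and promoter windows. The filter filterByExpr of edgeR 4.0.16 (R 4.3.3), minimum count 10, kept 15339 genes. TMM-scaled counts were fitted by quasi-likelihood with 8 group means over all libraries (7 residual degrees of freedom, median prior 5.1). Contrasts were ILC3 minus ILC2 over the 4 times, time within each cell type and their interaction. P-values were adjusted by Benjamini-Hochberg over all genes, threshold 0.05. DESeq2 1.42.0 was an alternative, and the closing section gives the others. CPM carried TMM scaling, with a pseudocount of 0.5 for logs, and RPKM used the deposited lengths. The named genes were members called in any test, the 4 with the smallest p in each test involving time, and up to 4 per other list with the smallest p for cell type. Members and lists were chosen with earlier results of these data known. Replicates differed by more than sampling noise (chi-square per degree of freedom 22 to 229). The pipeline was tested on simulated data.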

Additional observations from a re-analysis of the deposited data

Results flagged for a closer look

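In 4 of 64 sets (each of the 32 genes in the 7 ILC2 or the 8 ILC3 libraries) 1 library stood apart from the rest by Dixon's test at the 95% level, and chance gives about 1 in 20. Egr1 was at 1670 CPM in ILC2 ZT4 replicate 1, where the nearest ILC2 library had 975. Ier2 was at 858 CPM in the same library, against 456 in the nearest. Ier3 was at 42.7 CPM there, against 13.7. In ILC3 the library that stood apart was again ZT4 replicate 1, in which Egr1 was at 216 CPM where the nearest library had 612. Both are among the 3 shallowest libraries and have the highest myeloid marker sum of their cell type. The epithelial sum was the lowest of each cell type there, and the cytotoxic sum the highest of ILC2 and the lowest of ILC3. The part of depth or of any of these markers was not tested.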

How the results depend on the processing

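The count of 12 members called between cell types was 12 with RLE factors, with library size only and with no filter, 11 with a minimum count of 50, 11 without the 3 libraries with the fewest counts (chosen after seeing the data), 18 with DESeq2, and 9 to 14 with 1 library left out, where a lone library is assumed to vary like the other groups. Over time and in the interaction the edgeR counts were 0 in every fit that was run (0 to 0 with 1 library left out), also with each cell type fitted alone, and DESeq2 gave 1 over time in ILC3. Of the 12 calls, 8 held in all 22 alternatives. The exceptions were Gadd45b, Fosb, Maff and Dusp2, of which Fosb was also lost with library size only (adjusted p = 0.105), with no filter (0.0507) and without the 3 shallow libraries (0.0602), Maff without those 3 (0.0508) and Dusp2 with a minimum count of 50 (0.0528), all in edgeR. Ranges of log2 fold change over 15 fits with 1 library left out crossed or reached 0 for Jun (−0.27 to 0.16), Jund (−0.24 to 0.02) and Zfp36 (−0.07 to 0). With library size only the sign turned for Jund (0.05), Dusp1 (0.07), Dusp5 (0.03), Zfp36 (0.13) and Csrnp1 (0.05), and without the 3 shallow libraries for Egr1 (0.02) and Dusp1 (0.01); the cause was not tested. None of these was called. Adjusted p for Nr4a3 over time in ILC3 ran from 0.0375 (DESeq2) to 1. Whether replicate numbers pair the libraries was not settled (correlations of deviations between −0.15 and 0.49 over 21 pairs, 6 over 0.1). With the number as a replicate block and without ILC2 ZT16, 11 members were called between cell types and 0 in each other test, with Fosb (adjusted p = 0.0787) and Dusp2 (log2 fold change 0.48, adjusted p = 0.230) lost and Ier5 (0.0448) gained. The lowest depth was 4016298 counts, and Egr3, Ier3 and Egr2 were the members with the fewest CPM.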
